A study of Mus musculus with 4 samples.

Results

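Epididymal fat of *Mir342* (-/-) mice was compared with that of *Mir342* (+/+) mice, both fed with standard (STD) chow. The comparison is 1 array against 1 array, 2 of the 4 arrays of the series, and the members are the 12963 of 22180 named genes whose mean over the 4 arrays lay above a floor of 5.06 (log2). All mice were male and sampled at 16 weeks of age, and had received their diet from 5 weeks. In the *Mir342* (-/-) mice a puromycin selection cassette stood in place of the miRNA in every cell of the body, since the deletion was made in ES cells and not with a tissue-specific Cre. The *Mir342* (+/+) mice were wild-type males from the same crosses of *Mir342* (+/-) parents, which go back to chimeras prepared on C57BL/6N and mated with C57BL/6JJcl, and the labels give the strain as C57BL/6J. The other pair of arrays was taken from the same genotypes on chow rich in fat and sucrose (HFHS) and was used as the yardstick for the STD pair. The methods name 3 individual animals from each group, each group has 1 array, and no source used here says whether that array held a pool. Without replicates no difference below carries an error or a p, and each one describes 2 arrays.

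*Mir342* lies in an intron of *Evl*, a gene of actin filament assembly, and is transcribed with it. Its hairpin is cut into 2 short strands, which guide repressor complexes to mRNAs that pair with their seed, and loss of a miRNA can relieve such mRNAs directly and change others at a distance. White fat stores triglyceride in adipocytes and also holds blood and lymph vessels, macrophages and progenitor cells. The epididymal depot is covered by mesothelium and lies against the ducts of the male tract.

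The strands that the (-/-) mice lack are shown first, since they define the groups. They come from RefSeq on build GRCm38.p6, 5′ to 3′, with the seed (bases 2 to 8) in capitals.
mmu-miR-342-3p: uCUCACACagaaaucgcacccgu
mmu-miR-342-5p: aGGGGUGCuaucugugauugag
The 3p strand lies at chr12:108658680-108658702 and the 5p strand at chr12:108658638-108658659, both on the plus strand. Each seed was found in 1 of 1738 mature mouse miRNAs of the same table, so neither strand shares its seed with another miRNA there. An mRNA site that pairs with the 3p seed reads GUGUGAG. The hairpin of 99 bases, at chr12:108658620-108658718, is given with both strands in capitals.
Hairpin: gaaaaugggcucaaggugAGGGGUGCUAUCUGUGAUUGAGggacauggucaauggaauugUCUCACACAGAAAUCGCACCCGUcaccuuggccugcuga

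The *Mir342* probe read 4.62 in the STD (-/-) array and 5.43 in the STD (+/+) array, with 4.46 in the HFHS (-/-) array and 5.52 in the HFHS (+/+) array. Both (-/-) arrays thus lay below both (+/+) arrays. The probe stood under the floor on average, at 5.01, and an array for long RNA reads a hairpin of this length poorly. Its difference on STD was -0.81, and 8 of 478 miRNA genes on the array, *Mir342* included, were as low or lower. On HFHS it was -1.05, with 2 as low or lower, and *Mir342* was the 1 miRNA gene at or below its own values on both diets. *Evl*, the host gene, read 6.95 in the STD (-/-) array and 7.55 in the STD (+/+) array, with 7.46 in HFHS (-/-) and 7.65 in HFHS (+/+). The STD (-/-) array was the lowest of the 4 for *Evl*, by more than the spread of the other 3, and the difference of -0.61 (1.52-fold) just passed 1.5-fold. After the median difference of genes of its level was taken off, it was -0.47, which is under 1.5-fold. The 19 other tested genes nearest to *Mir342* on chromosome 12 differed by -0.36 to 0.55, with a median of 0.01, and 0 of them reached 1.5-fold. On all of chromosome 12, 4 of 456 tested genes (0.877%) were at least 2-fold apart, against 1.04% of all tested genes. Of the genes that distinguish the substrains C57BL/6J and C57BL/6N, *Nnt*, a mitochondrial transhydrogenase that C57BL/6J mice lack in full-length form, read 6.73 in STD (-/-) and 6.74 in STD (+/+), with 6.83 and 6.84 in the HFHS arrays of the same genotypes. *Cyfip2*, a regulator of actin, differed by -0.47 on STD and by 0.60 on HFHS, and *Wdfy1* by -0.27 on STD and by -0.20 on HFHS.

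The arrays held the markers of epididymal fat. *Fabp4*, the fatty acid carrier of adipocytes, read 12.45 in STD (-/-) and 12.41 in STD (+/+), and *Adipoq*, the adiponectin gene, 10.51 in STD (-/-) and 10.16 in STD (+/+). *Plin1*, the droplet coat protein, read 9.85 in STD (-/-) and 8.89 in STD (+/+), and *Wt1*, a transcription factor of the visceral mesothelium, 7.44 in STD (-/-) and 7.24 in STD (+/+). *Cfd* was not analysed here. The (-/-) array was shifted against the (+/+) array by an amount that depended on the level of the gene. The median difference was 0.09 over 1443 receptor probes (olfactory, vomeronasal and taste receptors, which served as background), 0.06 over 4205 genes under a level of 6, -0.09 between 6 and 7 and -0.14 between 7 and 8. Above 10 it was 0.03 to 0.04. A gene list of middle level therefore starts from about -0.1, and list medians are given below also after the median of each gene's level was taken off.

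**Figure D1:**
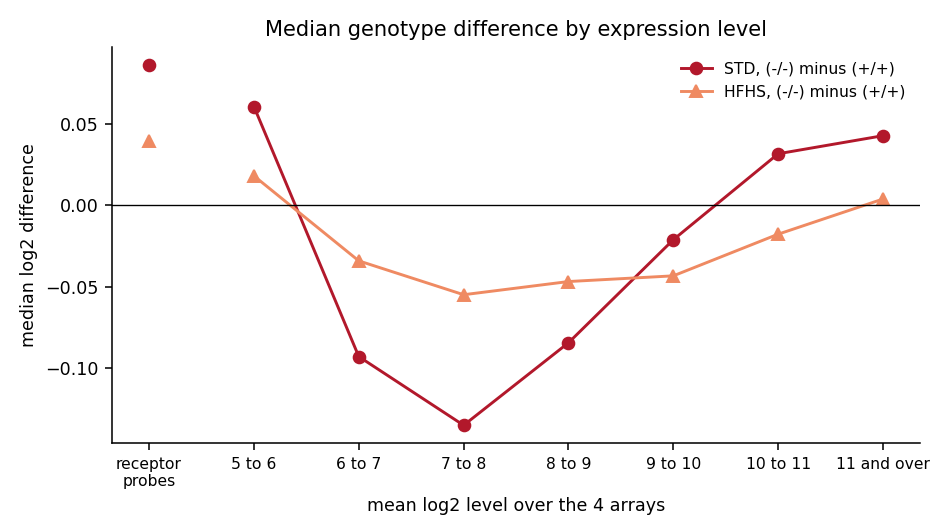
Median log2 difference of *Mir342* (-/-) minus *Mir342* (+/+) by the mean level of a gene over the 4 arrays, on STD chow (dark circles) and HFHS chow (light triangles), with receptor probes at the left. The STD medians pass from 0.06 under a level of 6 to -0.14 between 7 and 8 and return to 0.04 at 11 and over, while the HFHS medians over genes do not go below -0.06 or above 0.02.

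On STD chow, 29 genes were at least 2-fold higher in *Mir342* (-/-) fat (0.224% of the 12963 tested) and 106 at least 2-fold lower (0.818%). By the same measure, the HFHS pair had 11 higher (0.0849%) and 19 lower (0.147%), and the standard deviation of the difference over genes was 0.32 on STD and 0.21 on HFHS. To see which array set these 135 differences, each gene was read in all 4 arrays, and an array was called apart where it lay at least 2-fold above, or at least 2-fold below, each of the other 3. The STD (-/-) array was apart in 4 of the 135 genes, low in all of them (0.0309% of tested genes), and high in 0. The STD (+/+) array was apart in 50 genes in which it was high (0.386%) and in 15 in which it was low (0.116%). The floor was on the 4-array mean, so some of the 50 passed it only through the STD (+/+) array and could only be called high there. With the floor raised by 1 log2 unit, the STD (+/+) array was high in 18 genes and low in 15, and the STD (-/-) array low in 2. In the other 66 genes neither was apart. Among HFHS arrays, the (-/-) array was apart in 6 genes and the (+/+) array in 16. With 1.5-fold in place of 2-fold, the STD (-/-) array was apart in 16 genes high and 58 low, and the STD (+/+) array in 216 high and 99 low. By a looser rule, a gap to the nearest array wider than the rest of the 4-array range, the 135 genes gave 4 with the STD (-/-) array high, 13 with it low, 77 with the STD (+/+) array high and 16 with it low. In fat as a whole, a lower value can come from fewer cells of a type or from less RNA per cell, and these cannot be told apart. Nor can a wild-type array that stands apart be told from a mutant array that shares the values of the HFHS arrays, since diet differs between the pairs as well.

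**Figure D2:**
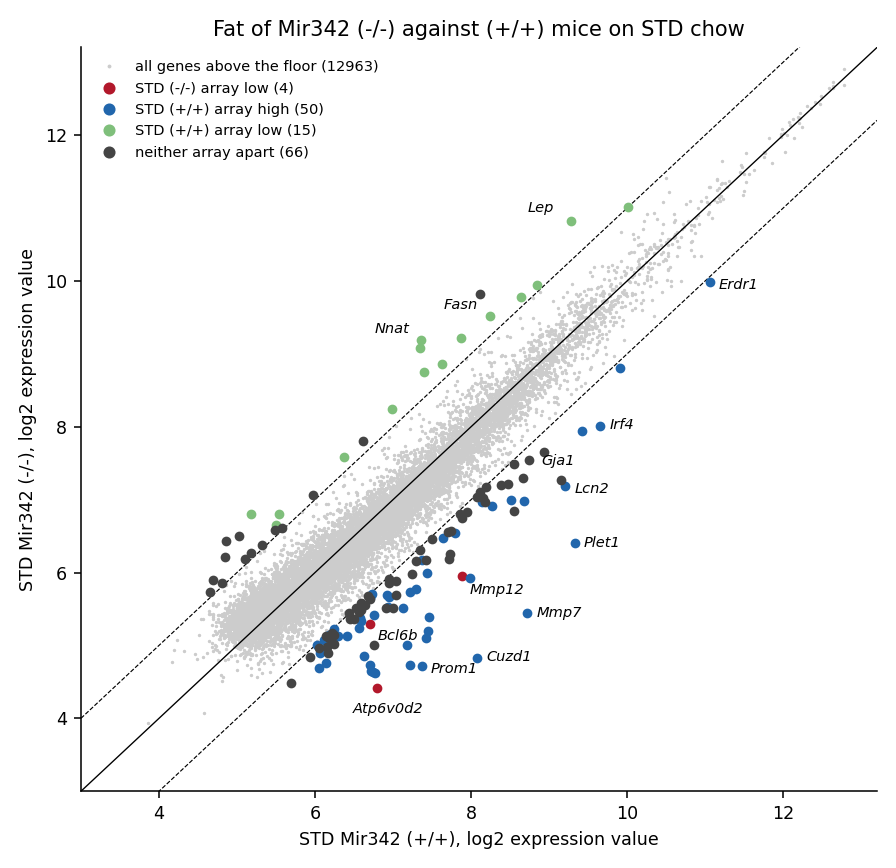
Log2 expression values of 12963 genes in the STD *Mir342* (-/-) array (vertical) against the STD *Mir342* (+/+) array (horizontal), with lines at no difference and at 2-fold. Coloured points are the 135 genes at least 2-fold apart, by the array that stood apart; 4 genes are low in the (-/-) array, and 50 genes high in the (+/+) array include the largest decreases.

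Of the 50 genes that were high in the STD (+/+) array (0.386% of all tested), 5 were among the 12 tested members of a duct and gland epithelium list. Since that list was made with earlier results of these data known, and some members passed the floor only through this array, the 5 are a description. Some other genes of the 50 are known from epithelia too. *Mmp7*, a matrix metalloproteinase that epithelia secrete, read 5.44 in STD (-/-) and 8.71 in STD (+/+), and 5.14 in both HFHS arrays. *Cuzd1*, an epithelial membrane protein gene, read 4.83 in STD (-/-) and 8.08 in STD (+/+), and 4.66 and 4.64 in the HFHS (-/-) and (+/+) arrays. *Prom1*, the gene of the apical membrane protein CD133, read 4.72 in STD (-/-) and 7.36 in STD (+/+), and 4.65 and 4.37 in the HFHS pair. In each of these 3 genes, the STD (-/-) array lay close to both HFHS arrays, and for *Cuzd1* and *Prom1* all 3 were under the floor. *Cdh1*, which encodes E-cadherin, the adhesion molecule of epithelia, read 5.34 in STD (-/-) and 6.58 in STD (+/+), and 5.36 and 5.22 on HFHS. *Cd24a*, a surface protein of epithelial and immature cells, read 6.98 in STD (-/-) and 8.68 in STD (+/+), and 7.01 and 6.84 on HFHS. *Lrp2*, the endocytic receptor megalin, read 5.77 in STD (-/-) and 7.29 in STD (+/+), and 5.89 and 5.66 on HFHS. The group also held *Cdh16*, a cadherin of kidney and duct epithelium (-1.02), the growth factor receptor gene *Erbb3* (-1.19), the laminin receptor subunit *Itga3* (-1.24), the transporter gene *Slc44a4* (-1.34) and *Acpp*, the acid phosphatase of the prostate (-1.28).

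Of a list of 38 duct epithelium genes, which was drawn up with earlier results of these data known, 35 had a probe and 12 of these averaged above the floor. *Cuzd1* and *Prom1* averaged above it through the STD (+/+) array alone, so that they had to be lower in STD (-/-), and the 12 are no sample of the list. Over all 35 with no floor the median difference was -0.12. Of the 12, 7 were at least 1.5-fold lower in STD (-/-) (3.95% of all genes) and 0 higher (1.79%). This is a description of genes picked with these values known, for which the shares of all genes are no fair yardstick. *Cldn3*, a tight junction gene of many epithelia, differed by -0.07 and *Krt14*, a keratin of basal cells, by -0.06. Members under the floor on average were left out of those counts, and several of them read above it in the STD (+/+) array alone. Over all 35, *Cuzd1* and *Prom1* included, 7 read above the floor in the STD (+/+) array alone and 2 in the STD (-/-) array alone. *Adam7*, a metalloproteinase of the epididymis, read 3.90 in STD (-/-) and 5.72 in STD (+/+), and 4.02 and 3.69 on HFHS. *Epcam*, a pan-epithelial adhesion molecule, read 3.73 in STD (-/-) and 5.37 in STD (+/+), and *Pax8*, a transcription factor of male and female ducts, 4.42 in STD (-/-) and 5.93 in STD (+/+). Secretory genes of the epididymis and the seminal vesicle, *Rnase9*, *Spag11b*, *Svs2*, *Svs4* and *Svs5*, were under the floor in all 4 arrays, and *Lcn5*, another of the epididymis, read 5.44 in STD (-/-) and 4.82 in STD (+/+).

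Several genes of the motile cilium read above the floor in the STD (+/+) array alone. Motile cilia beat through dynein arms and radial spokes, and multiciliated cells line parts of the ducts next to the epididymis. *Rsph4a*, a radial spoke protein gene, read 3.02 in STD (-/-) and 5.87 in STD (+/+), and 3.11 and 3.18 on HFHS. *Dnah5*, a heavy chain of the outer dynein arm, read 4.37 in STD (-/-) and 6.25 in STD (+/+), and 4.37 and 4.27 on HFHS. *Hydin*, of the central pair of microtubules, read 4.56 in STD (-/-) and 5.91 in STD (+/+), and 4.48 and 4.36 on HFHS. Since the (-/-) value of each was under the floor, their differences are bounds, -0.81 or lower for *Rsph4a*, -1.19 or lower for *Dnah5* and -0.85 or lower for *Hydin*. Of 15 cilium genes on the array, 1 read above the floor in STD (-/-) and 11 in STD (+/+), with 1 in each HFHS array, and 10 did so in the STD (+/+) array alone. The 1 that passed the floor on average, *Ccdc40*, which helps to assemble dynein arms, differed by -0.13, so the counts of genes past 2-fold or 1.5-fold hold none of the list. With no floor the median of the 15 was -0.57. Among all genes, 278 were above the floor in the STD (-/-) array alone and 240 in the STD (+/+) array alone. Genes with related roles among the 50 included *Cfap65*, an axoneme protein (-1.41), *Dcdc2a*, a doublecortin domain protein of cilia (-1.68 or lower), *Cdhr3*, a cadherin of ciliated cells (-2.11 or lower), and *Ttll7*, a tubulin modifying enzyme (-1.03).

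**Figure D3:**
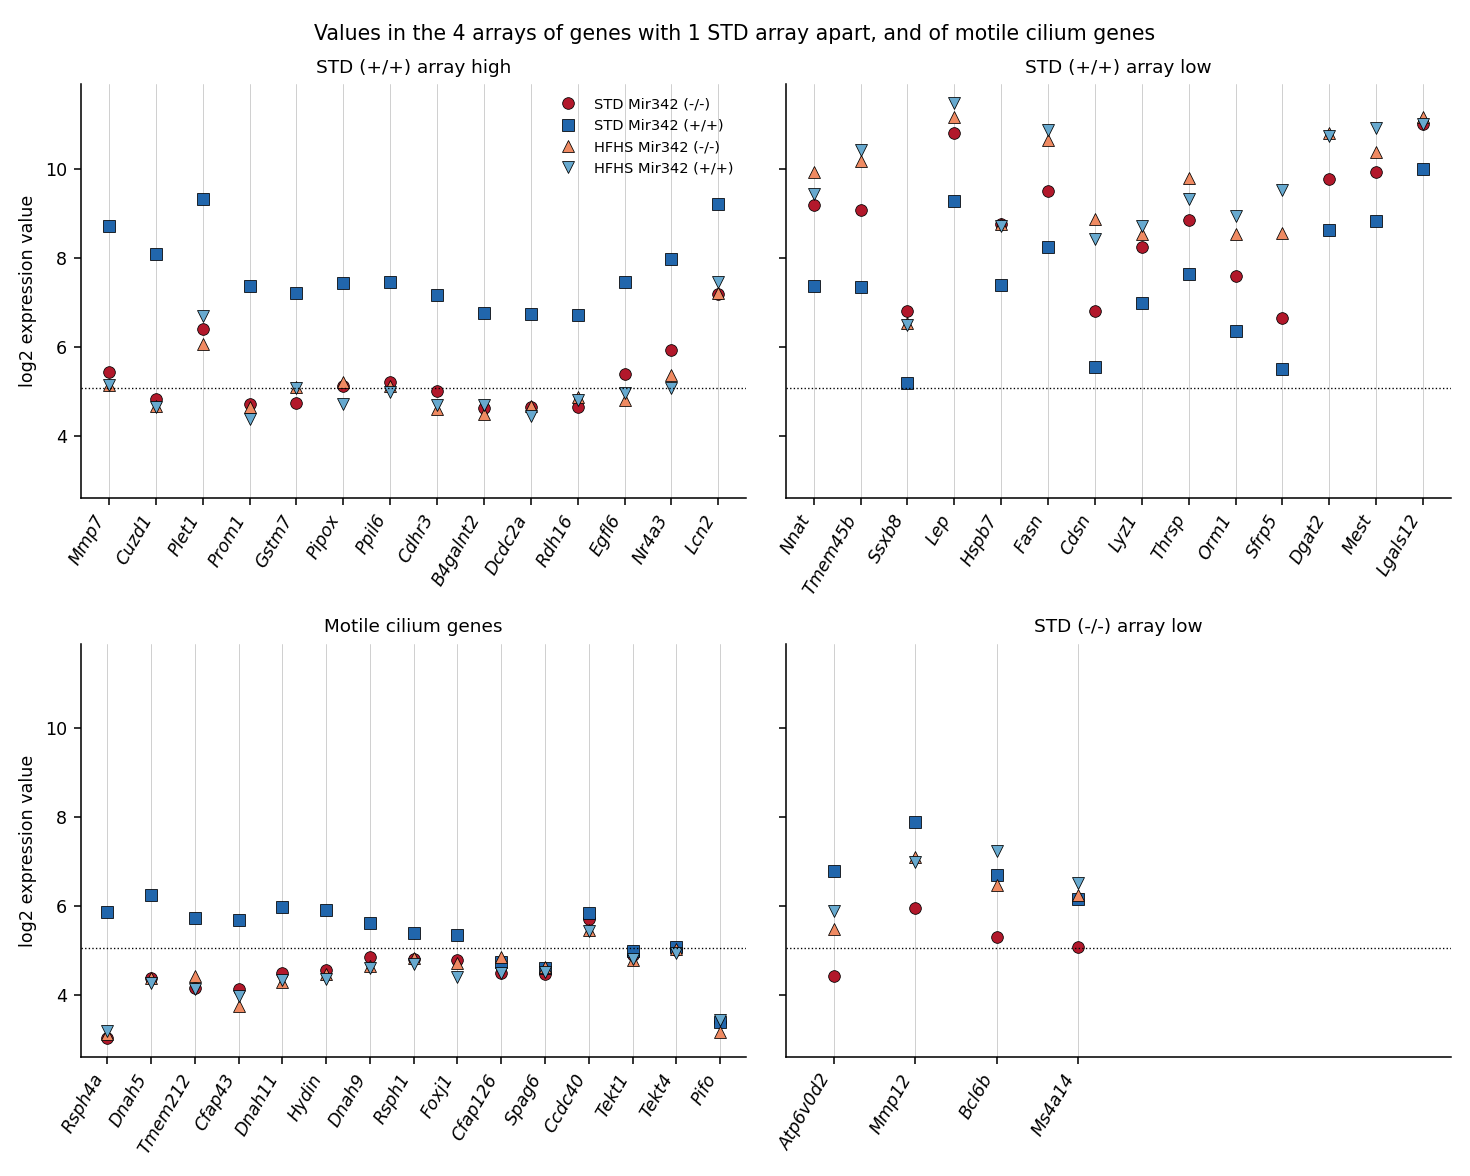
Log2 expression values in the 4 arrays (symbols) of named genes with the STD *Mir342* (+/+) array apart, high or low, of the motile cilium list, and of the 4 genes with the STD *Mir342* (-/-) array apart; the dotted line is the floor of 5.06. In the upper left the STD (+/+) square stands above all others, in the upper right below them, and in the lower left 10 of 15 squares alone are above the floor.

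The rest of the 50 had other roles. *Nr4a3*, an orphan nuclear receptor induced within the hour by many stimuli, read 5.93 in STD (-/-) and 7.98 in STD (+/+), and 5.35 and 5.08 on HFHS. *Lcn2*, which encodes lipocalin 2, an iron-scavenging protein of inflamed fat and of epithelia, read 7.19 in STD (-/-) and 9.20 in STD (+/+), and 7.22 and 7.46 on HFHS. *Irf4*, a transcription factor of lymphocytes and of fasted adipocytes, read 8.01 in STD (-/-) and 9.65 in STD (+/+), and 6.73 and 5.84 on HFHS, so that both STD arrays stood above both HFHS arrays. *Slc38a2*, a transporter of neutral amino acids, read 8.81 in STD (-/-) and 9.90 in STD (+/+), and 8.45 and 8.49 on HFHS. Enzyme genes in the group were *Pipox*, a peroxisomal oxidase of pipecolic acid and sarcosine (-2.32), *Ehhadh*, the bifunctional enzyme of peroxisomal fatty acid oxidation (-1.36), the cytochrome *Cyp2b10* (-1.16), the retinol dehydrogenase *Rdh16* (-1.66 or lower) and the glutathione transferase *Gstm7* (-2.15 or lower). *Gpnmb*, a membrane glycoprotein of lipid-laden macrophages, read 7.0 in STD (-/-) and 8.52 in STD (+/+), and 7.25 and 7.48 on HFHS. Of the 50 differences, 13 had 1 array under the floor. Some rest on 1 probe of several: the second probe of *Dpep2*, a dipeptidase gene, differed by -0.20 in place of -1.17, and those of *Mmp7*, *Cdh1* and *Cd24a* were under the floor.

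The 15 genes that were low in the STD (+/+) array included 6 on the lists of adipokines, lipogenesis and triglyceride storage, namely *Lep*, *Sfrp5*, *Nnat*, *Fasn*, *Thrsp* and *Dgat2*, and 0 on the list of adipocyte identity. By list they were 3 of 14 adipokine, 2 of 20 lipogenic and 1 of 17 triglyceride genes, against 0.116% of all genes. The lists were drawn up with earlier results of these data known, and *Nnat*, on the adipokine list, is not a secreted hormone. *Lep*, the leptin gene, read 10.82 in STD (-/-) and 9.28 in STD (+/+), and 11.18 and 11.48 on HFHS. *Fasn*, the fatty acid synthase, read 9.51 in STD (-/-) and 8.24 in STD (+/+), and 10.64 and 10.87 on HFHS. *Dgat2*, which adds the last acyl chain of triglyceride, read 9.78 in STD (-/-) and 8.63 in STD (+/+), and 10.81 and 10.73 on HFHS. *Lep*, *Fasn* and *Dgat2* are known to follow energy supply, and its part in these values was not tested. In 12 of the 15 genes the STD (-/-) value lay between the STD (+/+) value and both HFHS values. The rule for this class had already put the STD (+/+) value lowest. *Sfrp5*, a secreted Wnt inhibitor of adipocytes, read 6.65 in STD (-/-) and 5.50 in STD (+/+), and 8.56 and 9.52 on HFHS. *Mest*, an imprinted gene tied to fat expansion, read 9.94 in STD (-/-) and 8.84 in STD (+/+), and 10.38 and 10.91 on HFHS. *Nnat*, another imprinted gene of adipocytes, read 9.18 in STD (-/-) and 7.36 in STD (+/+), and 9.93 and 9.44 on HFHS, and its second probe differed by 1.19 as well. The group also held *Thrsp*, a regulator of lipogenesis (1.23), *Lgals12*, a lectin of the lipid droplet (1.0), *Tmem45b* (1.73), the small heat shock protein gene *Hspb7* (1.36), *Orm1*, an acute phase protein gene (1.22), *Lyz1*, a lysozyme (1.25), and *Cdsn*, a cell adhesion protein best known from skin (1.27).

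The STD (-/-) array was apart in 4 genes, all low, and *Atp6v0d2*, *Mmp12* and *Bcl6b* are known from macrophages or vessels. *Atp6v0d2*, a proton pump subunit of macrophages and osteoclasts, read 4.42 in STD (-/-), under the floor, and 6.79 in STD (+/+), and 5.47 and 5.90 on HFHS. *Mmp12*, the macrophage elastase, read 5.95 in STD (-/-) and 7.88 in STD (+/+), and 7.10 and 7.0 on HFHS. Both genes were also highest in the STD (+/+) array, so the STD arrays stood at the ends with the HFHS arrays between them. *Bcl6b*, a transcriptional repressor found in endothelium, read 5.29 in STD (-/-) and 6.70 in STD (+/+), and 6.48 and 7.24 on HFHS. *Ms4a14*, a member of the MS4A membrane protein family, read 5.09 in STD (-/-) and 6.16 in STD (+/+), and 6.25 and 6.52 on HFHS. With values under the floor set to it, 3 of the 4 genes stayed apart, since *Atp6v0d2* read only 5.47 in HFHS (-/-). For *Bcl6b* and *Ms4a14* the STD (+/+) value lay among or next to the HFHS values, so in these the (+/+) array did not depart from the HFHS arrays in the opposite direction. *Efnb2*, an arterial ephrin, was just outside the rule, with 6.31 in STD (-/-) and 7.34 in STD (+/+), and 7.24 and 7.80 on HFHS, a gap of 0.94.

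Macrophage genes were split. Of 21 genes of lipid-associated macrophages, the cells that gather around dying adipocytes, 7 were at least 1.5-fold lower in STD (-/-) (3.95% of all genes) and 0 higher (1.79%). The median was -0.41, and -0.39 after the level was taken off. Against the HFHS mean, the list stood at -0.40 in the STD (-/-) array and at -0.08 in the STD (+/+) array, so here the (-/-) array was the farther one. *Ms4a7* read 5.89 in STD (-/-) and 6.71 in STD (+/+), *Slc37a2*, a sugar-phosphate carrier, 4.99 in STD (-/-), under the floor, and 5.81 in STD (+/+), and the tetraspanin gene *Cd9*, which other cell types of fat also express, 7.75 in STD (-/-) and 8.55 in STD (+/+). The defining receptor *Trem2* was at 6.25 in STD (-/-) and 6.56 in STD (+/+), a difference of -0.31. Of 23 general and resident macrophage markers, 1 was at least 1.5-fold lower, the lysosomal glycoprotein gene *Cd68* (8.45 in STD (-/-) and 9.28 in STD (+/+)), and 0 were higher, a share near that of all genes. Their median was 0.02, with *Adgre1*, which encodes F4/80, at -0.02 and *Csf1r* at 0.03. Against the HFHS mean, these general markers stood at -0.53 in the STD (-/-) array and at -0.49 in the STD (+/+) array. Beside them, the lipid-associated list was closer to the general markers in the (-/-) array (-0.40) than in the (+/+) array (-0.08).

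Neither STD array was apart in 52 of the 106 lower genes, and in 42 of these the (-/-) array was the lowest and the (+/+) array the highest of the 4. The choice of genes by a 2-fold STD difference favours this order, so it describes them and is no separate result. Several are genes of vessels. *Gja1*, the gap junction protein connexin 43, read 7.27 in STD (-/-) and 9.15 in STD (+/+), and 7.86 and 8.26 on HFHS. *Mmrn1*, a protein of lymphatic endothelium and platelets, read 6.84 in STD (-/-) and 8.55 in STD (+/+), and 7.12 and 8.07 on HFHS. *Sox18*, a transcription factor of vessel formation, read 7.02 in STD (-/-) and 8.15 in STD (+/+), and 7.47 and 7.78 on HFHS. *Apold1*, an early response gene of endothelium (-1.47), *Adamts1*, a matrix protease (-1.38), *Lrrc32*, which tethers latent TGF-beta (-1.25), and *Tm4sf1*, a surface protein of endothelium (-1.02), followed the same order of arrays. Others in the 52 were *Car2*, a carbonic anhydrase (-1.70 or lower), the PI3-kinase regulatory subunit *Pik3r3* (-1.52), the estrogen receptor gene *Esr1* (-1.11), *Il7r*, the interleukin 7 receptor (-1.08), and *Cish*, a feedback inhibitor of cytokine signals (-1.10), whose second probe differed by 0.04.

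Blood endothelium as a list was lower in the STD (-/-) array. Of 25 markers, 24 had a negative difference (58.2% of all genes), 11 were at least 1.5-fold lower (3.95%) and 0 higher (1.79%), at a list median of -0.46, and -0.37 after the level was taken off. *Vwf*, the von Willebrand factor, read 7.23 in STD (-/-) and 8.11 in STD (+/+), and 7.46 and 7.57 on HFHS. *Nos3*, the endothelial nitric oxide synthase, read 6.88 in STD (-/-) and 7.69 in STD (+/+), and 6.97 and 7.29 on HFHS. *Kdr*, the main VEGF receptor, read 8.79 in STD (-/-) and 9.52 in STD (+/+), and 9.32 and 9.55 on HFHS. For *Vwf* and *Nos3* the (+/+) array was the higher outlier and for *Kdr* the (-/-) array the lower one, and the list median against the HFHS mean was -0.38 in the STD (-/-) array and 0.09 in the STD (+/+) array. On HFHS the list median of the genotype difference was -0.18, with 0 genes at least 1.5-fold higher (0.447% of all genes) and 1 lower (0.849%).

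The lymphatic and mural lists ran the same way. Of 8 markers of lymphatic endothelium, 4 were at least 1.5-fold lower (3.95% of all genes) and 0 higher, at a list median of -0.53. *Reln*, a secreted glycoprotein of lymphatic vessels, read 5.36 in STD (-/-) and 6.45 in STD (+/+), and 5.78 and 6.35 on HFHS. *Flt4*, the VEGF-C receptor, read 6.37 in STD (-/-) and 7.23 in STD (+/+), and 6.62 and 7.06 on HFHS. In *Reln*, *Flt4* and *Mmrn1* both (-/-) arrays lay below both (+/+) arrays, and the list median on HFHS was -0.35. Of 18 smooth muscle and pericyte genes, 2 were at least 1.5-fold lower (3.95% of all genes) and 1 higher (1.79%), with a median of -0.32. The lower ones were *Kcnj8*, a potassium channel of pericytes (-0.67), and the G protein regulator *Rgs5* (-0.59), and the higher one was *Synpo2* (0.71). Whether fewer vessel cells in the STD (-/-) fat took part in the lower vessel genes was not tested.

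Genes that signals switch on in vessels and other cells were also lower. Of 35 immediate early genes, which cells transcribe within minutes of a stimulus or of handling, 8 were at least 1.5-fold lower in STD (-/-) (3.95% of all genes) and 0 higher, at a list median of -0.31, and -0.23 after the level was taken off. Besides *Nr4a3*, *Klf4*, a transcription factor of endothelium and epithelium, read 7.52 in STD (-/-) and 8.48 in STD (+/+), and 7.37 and 7.78 on HFHS. *Nr4a1*, its relative among nuclear receptors, read 6.84 in STD (-/-) and 7.73 in STD (+/+), and 6.72 and 6.93 on HFHS. In *Nr4a3*, *Klf4* and *Nr4a1* the STD (+/+) array was the high one. Against the HFHS mean the list stood at -0.06 in STD (-/-) and at 0.18 in STD (+/+). *Egr1*, a zinc finger factor, differed by -0.61 on STD and by -1.16 on HFHS, and *Rgs2*, an inhibitor of G protein signals, by -0.65 on STD and by 0.65 on HFHS.

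Of 24 genes of TGF-beta and BMP signalling, 5 were at least 1.5-fold lower (3.95% of all genes) and 1 higher (1.79%), at a list median of -0.29, and -0.17 after the level was taken off. The 5 are targets or brakes of these pathways. *Id1*, a direct BMP target that blocks helix-loop-helix factors, read 7.11 in STD (-/-) and 8.11 in STD (+/+), and 7.33 and 7.55 on HFHS. *Smad6*, an inhibitory Smad of BMP signals, read 6.29 in STD (-/-) and 7.14 in STD (+/+), and 6.83 and 7.47 on HFHS. *Smad7*, the inhibitory Smad of TGF-beta signals, read 6.02 in STD (-/-) and 6.79 in STD (+/+), and 6.22 and 7.30 on HFHS. For both inhibitory Smads, each (-/-) array was below the (+/+) array of its diet by more than 1.5-fold. The others were *Skil*, a corepressor of Smads (-1.09), and *Id2* (-0.71), and the gene that was higher was *Bmp3*, a ligand that antagonises other BMPs (0.77). Receptors and ligands moved less, with *Tgfbr1* at -0.38, *Tgfbr2* at -0.22 and *Tgfb1* at -0.34. Of 14 Notch genes, the targets *Hey2* (-0.77) and *Nrarp* (-0.69) were at least 1.5-fold lower (3.95% of all genes) and 0 were higher (1.79%). *Notch1* was at -0.26.

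Lists for hypoxia and for glucocorticoid and fasting responses had medians near 0, with a few members down. Of 15 hypoxia genes, 3 were at least 1.5-fold lower (3.95% of all genes) and 0 higher. They were *Slc2a1*, the basal glucose transporter (7.63 in STD (-/-) and 8.45 in STD (+/+), and 7.45 and 7.53 on HFHS), *Adm*, a vasodilator peptide gene (-0.82), and *Vegfa*, the vessel growth factor (-0.64). Of 20 glucocorticoid and fasting genes, 3 were lower (3.95% of all genes) and 0 higher (1.79%). The 3 were *Lcn2*, the cell cycle inhibitor *Cdkn1a* (-0.86) and the kinase gene *Sgk1* (-0.74). *Fkbp5*, a chaperone strongly induced by glucocorticoids, read 8.83 in STD (-/-) and 8.26 in STD (+/+), and 7.12 and 7.11 on HFHS, so that both STD arrays were above both HFHS arrays.

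Of 17 circadian clock genes, 1 was at least 1.5-fold higher in STD (-/-) (1.79% of all genes) and 2 lower (3.95%), at a list median of 0.00. The clock runs on an activator arm, which includes *Arntl* and *Npas2*, and on outputs and repressors such as *Dbp*, *Per3* and *Nr1d1*, which peak at the opposite time of day. *Arntl*, which encodes BMAL1, read 6.45 in STD (-/-) and 7.49 in STD (+/+), and 6.36 and 6.53 on HFHS. *Npas2*, its partner, read 5.84 in STD (-/-) and 6.69 in STD (+/+), and 5.49 and 5.60 on HFHS. *Dbp*, an output transcription factor, read 8.02 in STD (-/-) and 7.04 in STD (+/+), and 8.09 and 8.01 on HFHS. In all 3 the STD (+/+) array was the one that stood off, and the other 3 arrays lay close to each other. *Per3*, which did not reach 1.5-fold, read 7.65 in STD (-/-) and 7.13 in STD (+/+), and 7.45 and 7.46 on HFHS. *Nr1d1*, the repressor of *Arntl*, differed by 0.28, *Per1* by 0.03, *Cry1* by -0.42 and *Clock* by -0.18. No source used here gives the time of day at collection, and its part in these values was not tested.

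Genes of the mesothelium were higher in STD (-/-) fat. Of 17 mesothelial genes, 7 were at least 1.5-fold higher (1.79% of all genes) and 1 lower (3.95%), at a list median of 0.34, and 0.43 after the level was taken off. *Upk3b*, a uroplakin that marks mesothelium, read 9.21 in STD (-/-) and 8.34 in STD (+/+), and 9.25 and 8.92 on HFHS. *Msln*, which encodes mesothelin, read 6.78 in STD (-/-) and 5.97 in STD (+/+), and 6.92 and 6.98 on HFHS. *Upk1b*, another uroplakin, read 8.63 in STD (-/-) and 7.82 in STD (+/+), and 8.30 and 8.12 on HFHS. Each was lowest in the STD (+/+) array, and against the HFHS mean the list stood at 0.09 in the STD (-/-) array and at -0.39 in the STD (+/+) array. *Muc16* (0.92 or more), *Lrrn4* (0.78), *Bnc1* (0.70) and *Nkain4* (0.66) completed the 7, and *Krt18*, a keratin of many simple epithelia, was the lower one (-0.64). How far the share of mesothelium in the pieces of fat took part in these values was not tested.

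Of 22 adipocyte identity genes, 4 were at least 1.5-fold higher (1.79% of all genes) and 0 lower (3.95%), at a list median of 0.11. They were *Plin1* (0.96), *Trarg1*, a protein of glucose transporter vesicles (0.75), *Npr3*, the natriuretic peptide clearance receptor (0.67), and the thyrotropin receptor gene *Tshr* (0.61). The master regulator *Pparg* was at -0.18 and *Fabp4* and *Cd36*, both of lipid uptake, at 0.04 and -0.04. Of 14 genes on the adipokine list, 4 were higher (1.79% of all genes) and 0 lower (3.95%). They were *Lep*, *Sfrp5*, *Rbp4*, the retinol carrier (0.77), and *Nnat*, which is not a secreted hormone. Of 20 lipogenic genes, 3 were higher (1.79% of all genes), *Fasn*, *Thrsp* and *Pnpla3*, a lipase induced by feeding (0.89), and 2 lower (3.95%). *Fads2*, the delta-6 desaturase, was one, with 6.57 in STD (-/-) and 7.74 in STD (+/+), and 6.85 and 7.10 on HFHS, and *Pklr*, a pyruvate kinase, the other (-0.67). *Acly* and *Acacb*, which act before *Fasn* or beside it, were at -0.07 and -0.22, while *Acaca* was at 0.43 and *Slc25a1* at 0.41. Of the 20 genes, 11 had a positive and 9 a negative difference, against 5413 and 7542 of all 12963 genes. With signs split and a median of 0.02, the list did not move as a block. The lower *Plin1*, *Lep* and *Fasn* of the STD (+/+) array stood beside its higher duct, cilium and vessel genes, and the part of cell composition was not tested.

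**Figure D4:**
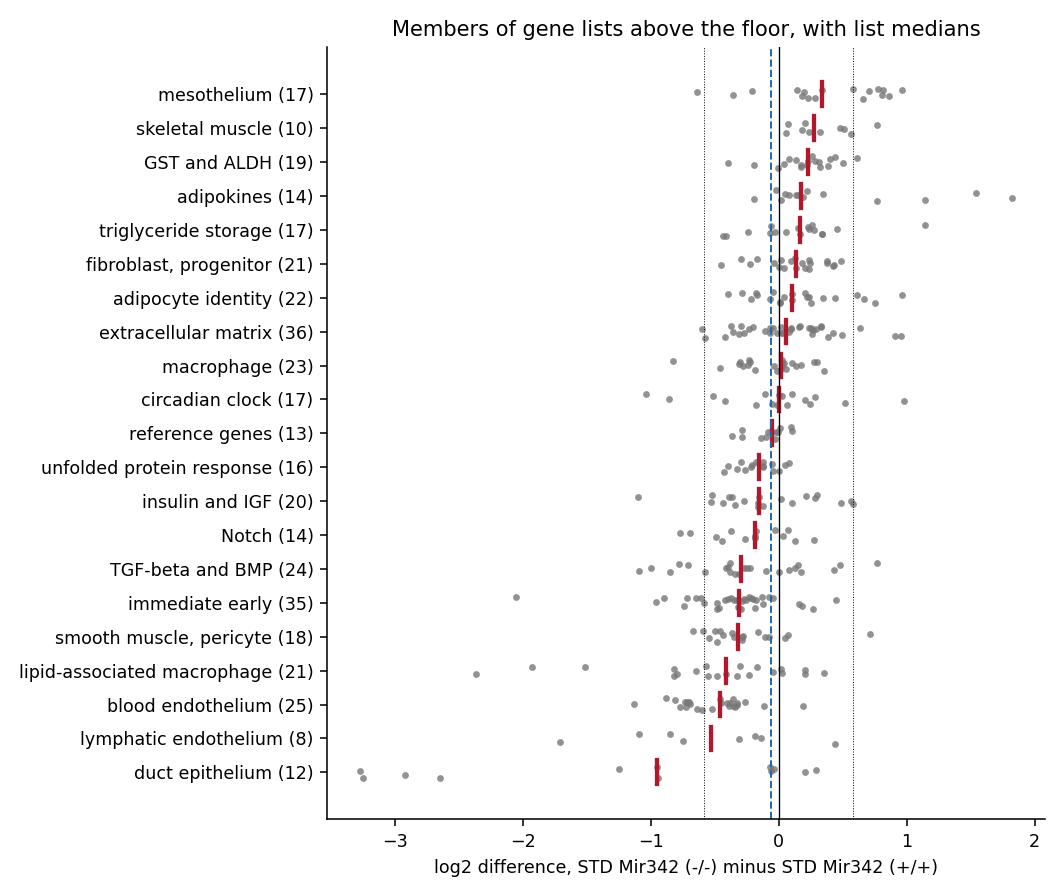
Log2 difference on STD chow, *Mir342* (-/-) minus *Mir342* (+/+), of every gene above the floor (points) in each gene list shown (rows); red ticks are list medians, the blue dashed line is the median of all genes (-0.06) and dotted lines mark 1.5-fold. Lymphatic (-0.53) and blood endothelium (-0.46) lie left, and the mesothelium (0.34) right, of the line for all genes, and the duct epithelium holds genes that passed the floor through the (+/+) array alone.

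Matrix genes were mixed. Of 36, 3 were at least 1.5-fold higher (1.79% of all genes) and 1 lower (3.95%), at a list median of 0.06. *Thbs2*, a thrombospondin that restrains vessel growth, read 9.06 in STD (-/-) and 8.11 in STD (+/+), and 8.56 and 7.75 on HFHS, so that each (-/-) array was higher than the (+/+) array of its diet. *Fmod*, the collagen-binding fibromodulin, read 7.85 in STD (-/-) and 6.94 in STD (+/+), and 7.81 and 7.41 on HFHS, and *Col15a1*, a basement membrane collagen, differed by 0.64. *Tnc*, the matrix protein tenascin C, was lower (-0.60). *Cxcl9*, a chemokine that draws T cells, read 8.93 in STD (-/-) and 7.93 in STD (+/+), and 9.09 and 9.16 on HFHS, while *Cxcl12*, which vessels and stroma secrete, was at -0.71. Of 10 skeletal muscle genes above the floor, 1 was higher (1.79% of all genes), the actin gene *Acta1* (0.77), with a median of 0.28. *Acsm5*, an acyl-CoA synthetase, was 1 of 14 higher genes in which neither STD array was apart, most of the others being receptors, antibody segments and small RNAs, and it read 7.81 in STD (-/-) and 6.62 in STD (+/+), and 7.21 and 7.28 on HFHS.

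**Figure D5:**
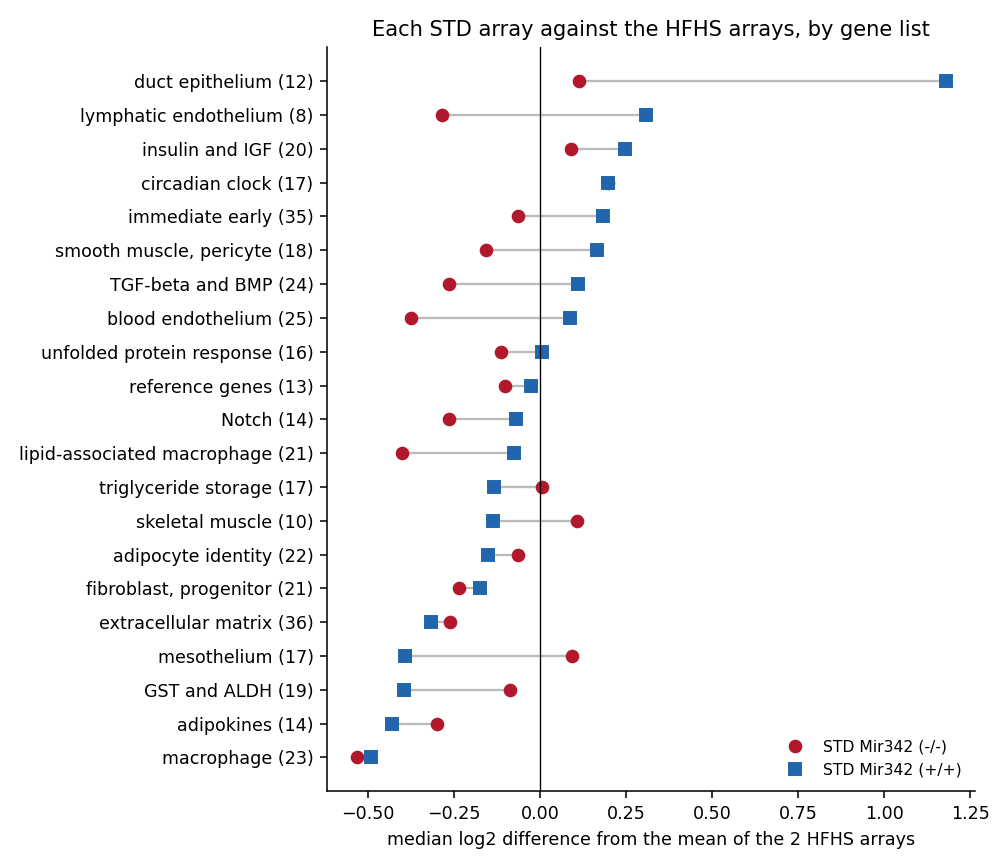
Median of each gene list shown in the STD *Mir342* (-/-) array and in the STD *Mir342* (+/+) array, each as the log2 difference from the mean of the HFHS arrays. The mesothelium stands at 0.09 in (-/-) and -0.39 in (+/+), and blood endothelium at -0.38 in (-/-) and 0.09 in (+/+); the duct epithelium holds genes that passed the floor through the (+/+) array alone, which sets its place.

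Other lists had few members past 1.5-fold, where 1.79% of all genes were higher and 3.95% lower. Of 38 genes of oxidative phosphorylation 1 was at least 1.5-fold higher and 0 lower (median 0.07), of 23 ribosomal protein genes 0 and 0 (median -0.06), of 13 housekeeping genes 0 and 0 (median -0.05), of 16 cholesterol synthesis genes 0 and 0 (median -0.09), of 21 fibroblast and progenitor genes 0 and 0 (median 0.13), and of 15 interferon genes 0 and 0 (median 0.19). Of 19 glutathione transferase and aldehyde dehydrogenase genes, which detoxify reactive compounds, 1 was higher, *Gstm4* (0.61), and 0 lower. A positive difference was found in 16 of the 19, against 5413 of all 12963 genes. Their median was 0.23, and 0.30 after the level was taken off. Of 16 genes of the unfolded protein response 0 passed 1.5-fold and 13 had a negative difference (58.2% of all genes). Their median was -0.15, and -0.13 after the level was taken off. Of 9 acute phase genes above the floor, 2 were higher, *Orm1* and its relative *Orm3* (0.70), and 2 lower, *Lcn2* and the protease inhibitor gene *Serpina3b* (-0.61). Of 4 blood cell genes above the floor 1 was lower, the platelet chemokine gene *Pf4* (-0.61), and of 14 proliferation genes 1 was lower, the replication clamp gene *Pcna* (-0.59), against a list median of 0.22. The medians of T and NK cell, dendritic cell and B cell markers were 0.16, 0.08 and 0.00. Heat shock genes had 1 higher, *Cryab* (0.71), and 1 lower, *Hsph1* (-0.95).

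Predicted targets of miR-342-3p were the genes whose mRNAs could be relieved directly. Of 301 symbols in the study's list, 270 had a probe and 223 passed the floor, and the list is one of predictions and holds no measured effect. In STD (-/-) fat 0 of the 223 were at least 1.5-fold higher, against 1.79% of all genes, and 12 (5.38%) were at least 1.5-fold lower, against 3.95%. Of the 223, 72.2% had a negative difference, against 58.2% of all genes, and the median was -0.12, or -0.04 after the level was taken off. The lowest was *Ptger4*, a prostaglandin E2 receptor, which read 5.86 in STD (-/-) and 6.95 in STD (+/+), and 6.47 and 6.63 on HFHS. *Sgms2*, a sphingomyelin synthase, read 5.91 in STD (-/-) and 6.95 in STD (+/+), and 6.53 and 6.96 on HFHS. *Adgrg2*, an adhesion receptor that the epididymis is known for, read 9.52 in STD (-/-) and 10.34 in STD (+/+), and 8.54 and 8.39 on HFHS. The highest was *Eef1a2*, an elongation factor, at 0.53, followed by *S100a7a* at 0.50, *Pygb*, a glycogen phosphorylase, at 0.50 and *Gsta4*, a glutathione transferase, at 0.44. *Tiam1*, a Rac activator, came next by its raw values, but it was under the floor in STD (+/+) and its difference is 0.14 or more. *Snap25*, a synaptic vesicle fusion protein gene whose 3′ untranslated region the study tested against the miRNA, read 4.91 in STD (-/-), under the floor, and 5.11 in STD (+/+), and 6.85 and 5.27 on HFHS. Its higher value thus appeared in the HFHS (-/-) array, and on STD the difference was -0.05 or lower. From the gene chip, the paper ranks *Snap25* top among genes raised in (-/-) mice on both chows. It also reports more *Snap25* mRNA by RT-qPCR in brain and epididymal fat of (-/-) mice on both chows. For organs in general the paper names a later age than the 16 weeks of the arrays. In its reporter assay, a miRNA mimic lowered the activity with the intact *Snap25* region and not with the mutated one. The STD pair of arrays, with values near the floor, did not show a rise of *Snap25*. The paper's supplement also lists *Snap25* as lower in (-/-) fat on STD, at -0.20 with no floor applied.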

How the data were processed

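Epididymal fat of male mice was hybridised to 4 arrays, 1 per group, of the type GeneChip Mouse Gene 2.0 ST, and the labels' genotype and diet gave each array its group. The authors deposited log2 expression values per probe set, whose background correction, summarization and normalization are not given in the sources used here. They were analysed without further scaling, and 0 columns were left out. Arrays hold no read depth, so their number limits the precision.

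Of 41345 probes, 23521 carried 1 gene symbol in the platform annotation. The probe with the highest mean over the 4 arrays stood for a gene, which gave 22180 genes, 1082 of them with several probes. The floor was set where 95% of the 1443 receptor probes had a lower mean, and 12963 genes lay above it. Differences are *Mir342* (-/-) minus *Mir342* (+/+). Where 1 of both compared values was under the floor, the floor took its place and the difference is written as a bound. Classes of arrays standing apart used 2-fold against each of the other 3. The classes were tested on simulated data.

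Genes were named from the locus and substrain lists, the largest differences at 2-fold, the largest of each class, the members of 45 gene lists with the largest differences or that define a list, and the 5 largest target differences in each direction. The members and lists were chosen with earlier results of these data known. Sequences and gene order came from RefSeq (GRCm38.p6). Alternatives were quantile normalization, median centring, other floors, the mean of probes, 1.5-fold, a looser rule for an array apart and, chosen after seeing the data, removal of the level median. Scripts ran in Python 3.11.15 with pandas 2.3.3 and numpy 2.4.6, and plots used matplotlib 3.10.9.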

Additional observations from a re-analysis of the deposited data

Results flagged for a closer look

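The genotype difference had opposite directions on the diets, with at least 1.5-fold on HFHS chow, in 3 named genes at least 2-fold apart on STD. *Irf4* differed by -1.64 on STD chow and by 0.89 on HFHS chow, *Atp1b1*, a subunit of the sodium pump, by -1.19 on STD and by 0.71 on HFHS, and *Sfrp5* by 1.15 on STD and by -0.95 on HFHS. The difference between the diets was not tested, since each group has 1 array. Probes with no gene symbol, which no comparison above uses, differed by 2-fold or more on STD in 55 cases upward and 142 downward among 6371 above the floor. Of these probes, 7 had the STD (-/-) array apart and high, against 0 of the named genes.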

How the results depend on the processing

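Genes at least 2-fold higher in STD (-/-) numbered 29, and 50 with no floor, 19 with the floor raised by 1 log2 unit and 232 at 1.5-fold. Genes at least 2-fold lower numbered 106, and 186 with no floor, 54 with the raised floor, 160 with the floor on the higher of both STD arrays and 512 at 1.5-fold. Genes with the STD (-/-) array apart and high numbered 0, and 16 at 1.5-fold and 4 by the looser rule. With it apart and low there were 4, and 2 with the raised floor, 58 at 1.5-fold and 13 by the looser rule. Genes with the STD (+/+) array apart and high numbered 50, and 117 with no floor, 18 with the raised floor, 100 with the floor on the higher array, 216 at 1.5-fold and 77 by the looser rule. With the STD (+/+) array apart and low there were 15, and 99 at 1.5-fold. Quantile normalization, median centring, values set to the floor and the mean of probes left these 6 counts within 1.5 times. Removal of the level median, chosen after seeing the data and run for the first 2 counts alone, gave 37 higher and 97 lower. With the raised floor the median of T and NK cell genes was -0.29, of thermogenic genes -0.093 and of proliferation genes -0.59, each of opposite sign to the value without it, since fewer genes remain. No checked gene at least 1.5-fold apart changed sign with quantile normalization, centring or the mean of probes. The genes checked were the named ones past 2-fold and the largest differences of each list, and smaller differences were not checked for sign. No paired analysis was possible because each group has 1 array. Without replicates no count can be set against the spread between mice.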
